A study of Mus musculus with 20 samples.

Results

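Cytokine receptors are the surface proteins through which blood stem and progenitor cells read growth factors and inflammatory signals. The 9 genes described here encode the erythropoietin receptor (Epor), the IL-33 receptor ST2 (Il1rl1), the shared chain gp130 (Il6st), the ligand-binding chain of the interferon gamma receptor (Ifngr1), the chains of the GM-CSF and IL-3 receptors (Csf2rb, Csf2rb2, Csf2ra, Il3ra) and the M-CSF receptor (Csf1r). They were chosen by symbol, each matched 1 Ensembl identifier, and they are 9 of the 38561 genes in the count tables.

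The samples were 20 single cells from the bone marrow of C57BL/6J mice, each sequenced by Quartz-Seq, which copies the polyadenylated RNA of a cell and amplifies it by PCR. All 20 cells had been sorted as lineage-negative and cKit-positive, the compartment that holds blood stem and progenitor cells. The 9 cells called CD150+CD48- here were also CD150-positive and CD48-negative, a gate that enriches stem cells, and the 11 cells called CD150- carried no CD48 gate in their label. ERCC spike-in RNA was in the lysis buffer of every cell, no treatment, age or sex was named, and the cells keep the codes of their titles. Letters A and B occurred only among CD150+CD48- cells and C and D only among CD150- cells. The sources used here do not explain the letters, so whatever they mark cannot be told apart from the sort.

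Most of these receptors have no enzyme activity of their own. Ligand binding brings their chains together, JAK kinases bound to the chains phosphorylate them, and STAT factors then enter the nucleus. ST2 signals instead with the IL-1 receptor accessory protein through the MyD88 route, and the M-CSF receptor is itself a tyrosine kinase. In bone marrow, erythropoietin keeps red cell precursors alive, GM-CSF, IL-3 and M-CSF drive myeloid cells, and gp130 serves IL-6, IL-11 and related cytokines.

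No animal or culture was named, so each group counted as 1 sample, cells were not treated as replicates and no difference below was tested. Gene reads per cell ranged from 660007 to 5776125, and each cell was thinned to 660007 reads, at which 1 read is 1.52 CPM (read counts scaled to the cell's total of gene reads). Intervals are exact 95% intervals, Poisson for levels, conditional binomial for folds and Clopper-Pearson for shares of cells. They cover counting error only, since PCR reads without molecular identifiers are not independent molecules. At equal depth CD150+CD48- cells had a median of 5327 genes with a read (range 4753 to 8657) and CD150- cells 8330 (range 5453 to 8901). Kit had reads in all 20 cells. Of the gate genes, Slamf1, which encodes CD150, had thinned reads in 2 of 9 CD150+CD48- cells and in no CD150- cell. Cd48 had 165 thinned reads in B3, a cell labelled CD48-negative, and none elsewhere, so receptor values that B3 largely sets are also given without it.

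The receptors were read in different sets of cells. Epor and Il1rl1 were read in the same 7 CD150- cells, while gp130 and both beta chains (Csf2rb, Csf2rb2) had no read in any of those 7. Of the genes read in 3 to 7 cells, 28.5% likewise had no read in those 7. That share pools genes read in few cells, which miss the 7 more easily, with genes read in as many cells as gp130. Ifngr1 was the most widely read, in 14 of 20 cells, and the GM-CSF receptor alpha chain Csf2ra was the receptor read at moderate level in most CD150+CD48- cells. Il3ra and Csf1r were near or under the limit of what this depth shows. Of the 36 pairs of these genes, 14 had no cell in common. Csf1r was read in 1 cell, Il3ra in 2, Csf2rb in 3 and Csf2rb2 in 4, and genes read so rarely can miss each other through scarcity. The share of such pairs over all genes was not computed, so this count is a description only.

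**Figure D1:**
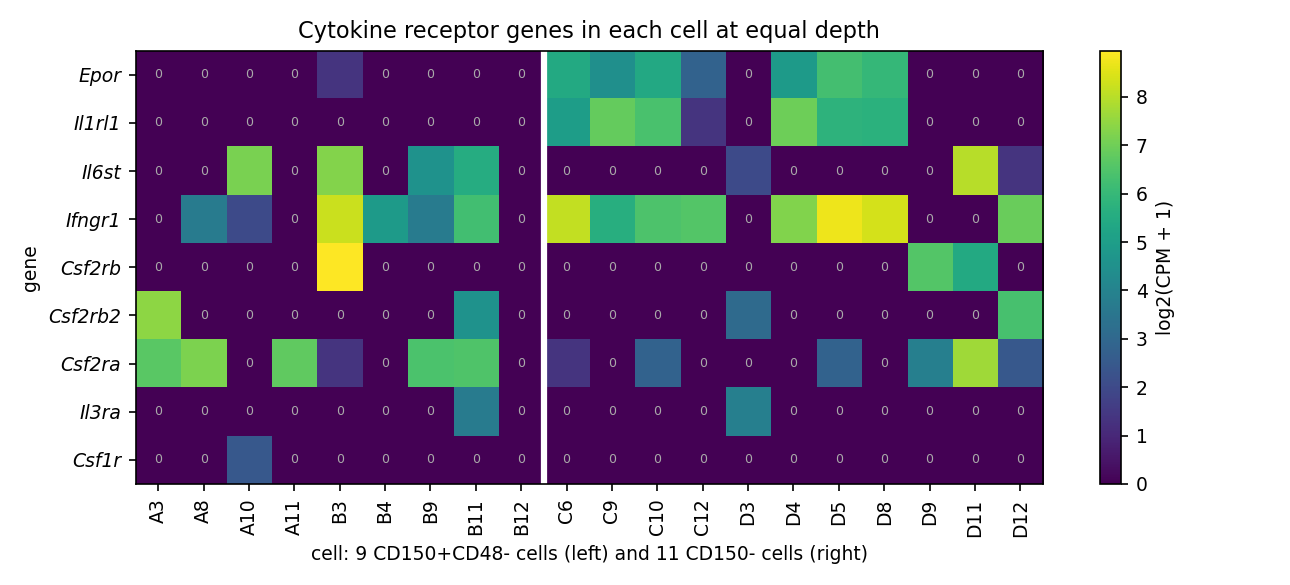
Colour gives log2(CPM + 1) of each receptor gene (rows) in each cell (columns) after thinning to 660007 reads, with 0 printed where a cell had no read; the white line parts the 9 CD150+CD48- cells from the 11 CD150- cells. Epor and Il1rl1 fill the columns C6, C9, C10, C12, D4, D5 and D8, where Il6st, Csf2rb and Csf2rb2 are at 0.

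Because Epor and Il1rl1 shared their 7 CD150- cells and Il6st had no read in them, the 250 bases before the annotated start of these 3 genes are shown (RefSeq, GRCm38.p6, 5′ to 3′ on the gene's strand). Capitals mark every match to GATAA on either strand, a word recognised by the erythroid and stem cell GATA factors. Il1rl1 has 2 listed start sites. The windows are chr9:21963577-21963826 (minus strand) for Epor, chr1:40429320-40429569 and chr1:40439379-40439628 (plus strand) for Il1rl1, and chr13:112463820-112464069 (plus strand) for Il6st.
Epor: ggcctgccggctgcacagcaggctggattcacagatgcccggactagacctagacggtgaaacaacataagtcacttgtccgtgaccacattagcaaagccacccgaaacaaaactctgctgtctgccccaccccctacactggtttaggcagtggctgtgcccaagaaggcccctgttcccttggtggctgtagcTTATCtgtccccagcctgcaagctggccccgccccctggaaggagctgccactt
Il1rl1 start site 1: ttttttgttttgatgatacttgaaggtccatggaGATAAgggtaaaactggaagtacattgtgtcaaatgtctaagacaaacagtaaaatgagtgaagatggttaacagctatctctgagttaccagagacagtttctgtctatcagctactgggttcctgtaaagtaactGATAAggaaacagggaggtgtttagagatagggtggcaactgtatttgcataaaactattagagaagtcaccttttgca
Il1rl1 start site 2: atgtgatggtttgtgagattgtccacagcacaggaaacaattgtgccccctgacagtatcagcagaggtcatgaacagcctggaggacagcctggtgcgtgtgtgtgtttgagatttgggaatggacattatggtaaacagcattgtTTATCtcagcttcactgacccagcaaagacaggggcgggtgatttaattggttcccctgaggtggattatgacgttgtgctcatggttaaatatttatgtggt
Il6st: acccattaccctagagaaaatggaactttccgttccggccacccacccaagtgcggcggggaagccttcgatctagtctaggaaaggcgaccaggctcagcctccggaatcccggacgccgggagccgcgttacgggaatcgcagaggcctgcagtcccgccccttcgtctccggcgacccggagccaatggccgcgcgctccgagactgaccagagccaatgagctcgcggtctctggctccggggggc
Epor held 1 match, Il1rl1 held 2 before its first start site and 1 before its second, and Il6st held none. Of 32536 mouse promoter windows of this length, 22.5% held at least 1 match and 4.18% held 2 or more. Of the 9 receptors, 7 had a window in the table, and of the other 4 of these, Csf2rb2 held 1 match and Ifngr1, Csf2ra and Il3ra none. Other words were counted in the same windows. CACCC had 2 matches in Epor, 1 before each Il1rl1 start site and 2 in Il6st, and GGAA had 2, 3, 3 and 7 in that order. TTCNNNGAA had none in these windows. Of the mouse windows, 52.1% held CACCC and 93.4% held GGAA. A match is a description of the letters, not a bound site.

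Epor (ENSMUSG00000006235, chromosome 9, 21958897 to 21963506, minus strand, GRCm38) encodes the receptor through which erythropoietin sustains red cell precursors. In thinned reads it had 28 in C6, 14 in C9, 27 in C10, 4 in C12, 19 in D4, 50 in D5 and 41 in D8. The other 4 CD150- cells, D3, D9, D11 and D12, had none, and among CD150+CD48- cells B3 alone had a read, a single one. Each of the 7 CD150- cells with Epor reads thus lay above all 9 CD150+CD48- cells, and the remaining 4 lay within their range.

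Summed over each sort, the Epor level was 25.2 CPM (95% CI 21.7 to 29.1) for CD150- and 0.168 CPM (95% CI 0.00426 to 0.938) for CD150+CD48- cells. That is 150-fold lower in the latter (95% CI 26.5 to 5946), with the wide interval set by the 1 read. The log2 fold (CD150+CD48- over CD150-, pseudocount 1 CPM) was -4.49, and -4.71 without B3, which leaves no CD150+CD48- read. With all reads of each cell in place of thinned ones, 3 of 9 CD150+CD48- cells had Epor reads, 7 in B3, 4 in A3 and 1 in B4, beside 40 to 223 in the 7 CD150- cells.

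Il1rl1 (ENSMUSG00000026069, chromosome 1, 40429570 to 40465415, plus strand) encodes ST2, known best from mast cells, basophils and innate lymphoid cells. It had 20 thinned reads in C6, 75 in C9, 54 in C10, 1 in C12, 82 in D4, 36 in D5 and 34 in D8, and 0 in the other 13 cells. These are the same 7 CD150- cells as for Epor, although the order differed: D4 and C9 were highest for Il1rl1 and D5 and D8 for Epor. C12 was lowest of the 7 for both.

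Il1rl1 was thus read in 7 of 11 CD150- cells (63.6%, 95% CI 30.8 to 89.1) at 41.6 CPM (95% CI 37.0 to 46.6). Its 0 of 9 CD150+CD48- cells allow a share of up to 33.6%, and its level there was at least 82.4-fold lower, taking 3 reads in the whole group as the floor. No CD150+CD48- cell had an Il1rl1 read at full depth either. Of the 11345 genes past the filter (at least 10 thinned reads and a read in 3 cells), 31 (0.273%) were read in exactly these 7 cells, and 81 (0.714%) had no read in CD150+CD48- cells and reads in 7 or more CD150- cells.

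The accessory chain that ST2 needs, Il1rap, shared 5 of the 7 cells: it had 43.9 CPM in C6, 19.7 in C9, 65.2 in C12, 15.2 in D4 and 48.5 in D5. C10 and D8 had Il1rl1 reads and none of Il1rap. Outside these cells Il1rap was read in D12 at 36.4 CPM and B11 at 93.9 CPM, the highest value of all. Its log2 fold was -0.93, and -4.45 without B11.

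The 7 cells with Epor and Il1rl1 reads were also those with the highest shares of erythroid marker reads, from 1.06% of gene reads in D4 to 2.34% in C9. The other 4 CD150- cells had 0.0294% in D12 to 0.259% in D3, and the CD150+CD48- cells 0.0235% to 0.302%. Of the 20 listed erythroid markers found, 19 passed the filter, 18 of them lower by 2-fold or more in CD150+CD48- cells. Over all genes past the filter 27.3% were lower by as much, and the list was chosen with earlier results of these data known. The 7 cells also had the most gene reads per spike-in read, 109 in C6 to 302 in C10, where the other 4 CD150- cells had 12.7 to 43.8 and CD150+CD48- cells 22.3 to 109. The part of either in the Epor and Il1rl1 levels was not tested.

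Markers of mast cells and basophils were nearly absent. Of the 13 mast cell and basophil markers, 10 had no thinned read in any cell, among them Fcer1a and Mcpt8, and the list took at most 0.00682% of gene reads, in B3. In the 7 cells with Il1rl1 reads it was at 0 except in C12, at 0.00152%. Of the 13 T, NK and innate lymphoid markers, 6 had no read, but others were read: Gata3 in 18 of 20 cells and Rora at 127 CPM in CD150+CD48- and 30.3 CPM in CD150- cells. Among CD150- cells all Rora reads were in D12, which had no Il1rl1 read. Tcf7, of the same list, went the other way, with 40 thinned reads that were all in C6, a cell with 20 Il1rl1 reads. This list lay between 0.000606% and 0.102% in CD150+CD48- cells and 0 and 0.0362% in CD150- cells, with D12 highest of the latter. In the 7 cells with Il1rl1 reads the list took 0 to 0.00636%.

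**Figure D2:**
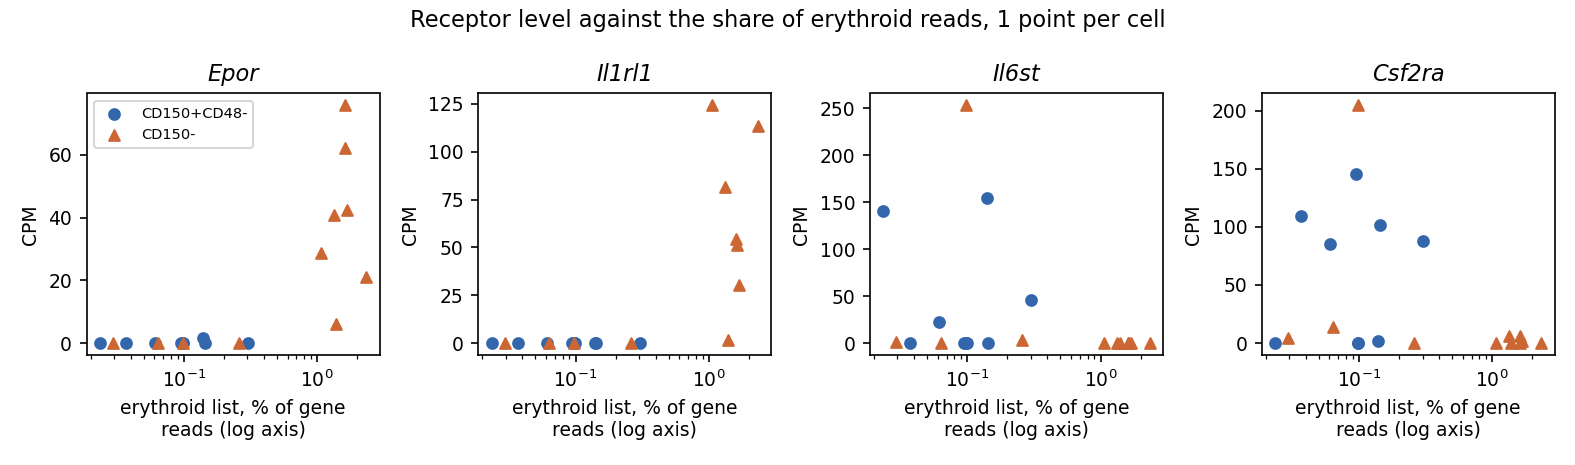
Each point is 1 cell: the x axis (log) is the percent of gene reads on the erythroid marker list and the y axis the CPM of the gene named above the panel, with circles for CD150+CD48- and triangles for CD150- cells. Epor and Il1rl1 points above 1.52 CPM, the level of 1 read, all lie at 1.06% erythroid reads or more, where Il6st is at 0 and Csf2ra reaches at most 6.06 CPM.

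By rank correlation across the 20 cells, the genes most like Il1rl1 included Ifi30 (Spearman rho 0.989), which encodes a lysosomal thiol reductase, and Asb17os (0.983). Those most like Epor were Slc22a23 (0.960), Dlgap5 (0.956) and Cdca3 (0.954); Dlgap5 and Cdca3 are genes of mitosis. All 5 were at 0 in CD150+CD48- cells and read in 7 CD150- cells. Epor and Il1rl1 had a rho of 0.902 with each other. These values describe 20 cells that share depth and cell type makeup, come from 9939 candidate genes and rest on many zeros.

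Jak2, the kinase bound to the erythropoietin receptor, was read in all 8 cells with an Epor read, at 6.06 CPM in D5 to 221 CPM in D4. It was no marker of those cells: it was read in 16 of 20 cells, up to 418 CPM in D12, with 79.0 CPM in CD150+CD48- cells and 117 CPM in CD150- cells.

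Il6st (ENSMUSG00000021756, chromosome 13, 112464070 to 112510086, plus strand) encodes gp130, the signalling chain shared by the IL-6 family. Among CD150+CD48- cells it had 141 CPM in A10, 155 in B3, 22.7 in B9 and 45.5 in B11, and 0 in the other 5. Among CD150- cells it had 253 CPM in D11, 3.03 in D3 and 1.52 in D12, and 0 in the other 8. The ranges overlapped, since the highest value of all was in a CD150- cell.

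The group level of Il6st in CD150+CD48- cells was 40.4 CPM (95% CI 35.5 to 45.9), read in 4 of 9 (44.4%, 95% CI 13.7 to 78.8), and in CD150- cells 23.4 CPM (95% CI 20.0 to 27.2), read in 3 of 11 (27.3%, 95% CI 6.02 to 61.0). The ratio of 1.73 (95% CI 1.41 to 2.11), a log2 fold of 0.76, rested on single cells. D11 held 98.2% of the CD150- reads, and the log2 fold was 4.83 without D11 and 0.15 without B3. None of the 7 cells with Il1rl1 reads had an Il6st read, which also held for 28.5% of the genes read in 3 to 7 cells. Il6st was read in 7 cells, the upper end of that range, and genes read in fewer cells miss others more easily. The share among genes read in 7 cells was not computed. Stem cell markers took 0.188% to 1.48% of gene reads in CD150+CD48- cells, 1.03% in D3, 0.443% in D9, 0.537% in D11 and 0.606% in D12, and 0.0124% to 0.0580% in the 7 cells with Il1rl1 reads. The cells at 0.188% or more were exactly those outside these 7. That the cells with Il6st, Csf2rb or Csf2rb2 reads were all among them thus restates that these genes had no read in the 7. The part of the stem cell marker share in their levels was not tested. The genes most like Il6st across the 20 cells were Hvcn1 (rho 0.937), a proton channel gene, Adssl1 (0.875) and Zfp286 (0.863).

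The alpha chains that pair with gp130 had larger folds between the sorts than gp130 itself. Il11ra1, the IL-11 receptor alpha chain, was read in 8 of 9 CD150+CD48- cells, at 902 CPM in A11, 589 in A3, 274 in B3, 62.1 in B9 and 3.03 to 10.6 in A8, A10, B4 and B12, with none in B11. In CD150- cells it had 4.55 CPM in D9, 3.03 in D11 and 0 in the other 9. The group level was 207 CPM against 0.689 CPM, 300-fold higher (95% CI 128 to 925), with a log2 fold of 6.94 and 6.16 without A11. Of the 50-base words of its transcripts, 46.3% also occur in annotated copies of the gene, so its level is uncertain.

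Il6ra, the IL-6 receptor alpha chain, had 16.7 CPM in B11, 12.1 in B3, 3.03 in A11 and 1.52 in A10, and none in the CD150- sort; its level was at least 8.96-fold higher in CD150+CD48- cells. Reads of Il6st and Il6ra occurred together in A10, B3 and B11, and reads of Il6st and Il11ra1 in A10, B3, B9 and D11. The other 2 partners, Lifr and Osmr, had no thinned read in any cell. All 9 CD150+CD48- cells had reads of at least 1 of these 2 alpha chains, with or without gp130 reads.

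**Figure D3:**
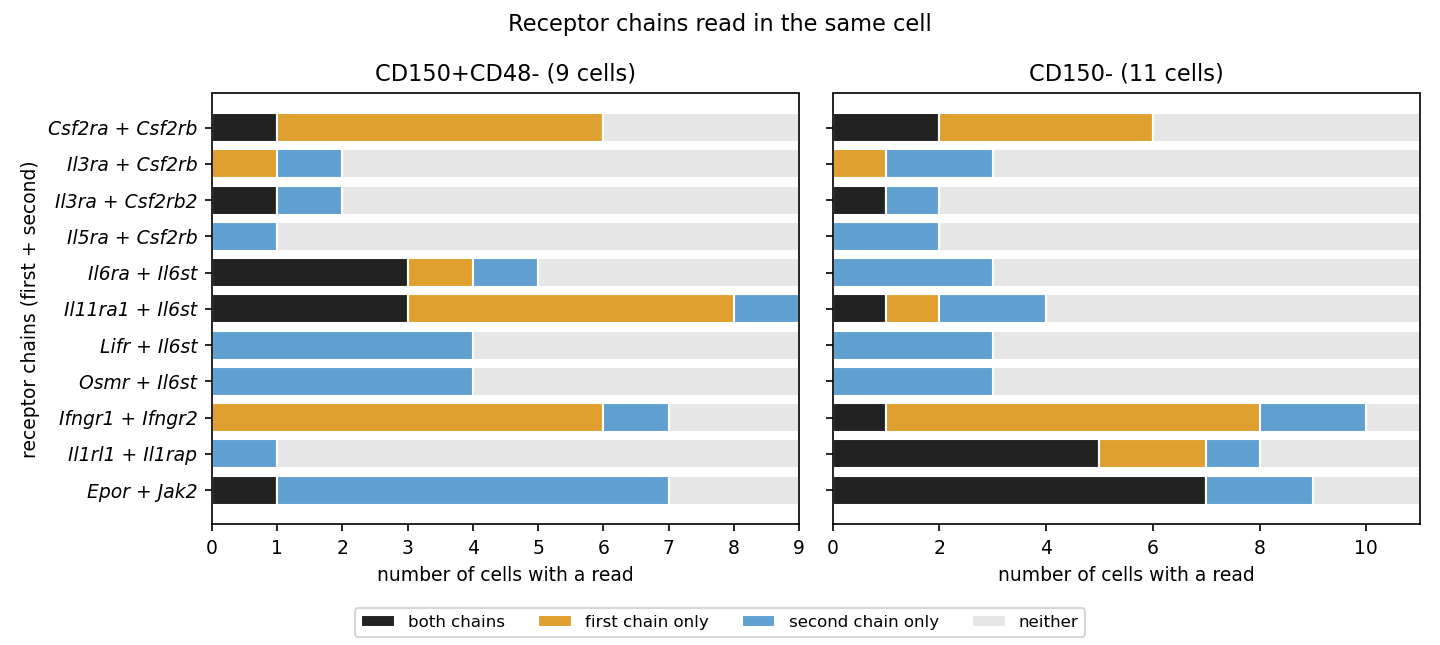
Bars count cells of each sort (x axis, number of cells) with thinned reads of both chains of a receptor, of the first or second named chain only, or of neither. Il1rl1 with Il1rap was read in 5 CD150- cells and no CD150+CD48- cell, and Il6ra with Il6st in 3 CD150+CD48- cells and no CD150- cell.

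Ifngr1 (ENSMUSG00000020009, chromosome 10, 19591949 to 19610229, plus strand) encodes the chain that binds interferon gamma. Among CD150- cells its level was 0 at the lowest, 92.4 CPM at the median and 424 CPM at the highest, in D5. D8 had 330 CPM, C6 279, D4 152, D12 118, C12 92.4, C10 86.4 and C9 48.5, and D3, D9 and D11 had none. In CD150+CD48- cells it had 298 CPM in B3, 74.2 in B11, 28.8 in B4, 12.1 in A8 and B9 and 3.03 in A10, with a median of 12.1 CPM and none in A3, A11 and B12.

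The groups overlapped, although 8 of 11 CD150- cells lay above every CD150+CD48- cell but B3 and B11, and of these C9 alone lay below B11. The CD150- level was 139 CPM (95% CI 131 to 148) and the CD150+CD48- level 47.6 CPM (95% CI 42.3 to 53.5), 2.92-fold lower in the latter (95% CI 2.56 to 3.34). The cells with an Ifngr1 read were 8 of 11 (72.7%, 95% CI 39.0 to 94.0) and 6 of 9 (66.7%, 95% CI 29.9 to 92.5), shares within each other's intervals. B3 held 69.6% of the CD150+CD48- reads, and the log2 fold of -1.53 was -3.02 without it. All 8 cells with an Epor read had Ifngr1 reads, and the genes most like Ifngr1 across cells were Pccb (rho 0.861), Mthfd1l (0.856) and Ndufv1 (0.855), all of mitochondrial metabolism.

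The second chain, Ifngr2, which carries the signal, was read in 4 cells: 25.8 CPM in C6, 22.7 in D11, 6.06 in D9 and 3.03 in A11. Both chains were read together in C6 alone, and in B3, C6 and D12 with all reads. Of 27 interferon gamma target genes found, 19 passed the filter, with 5 higher by 2-fold or more in CD150+CD48- cells, 8 lower and a median log2 fold of -0.50. Over all genes past the filter, 21.8% were higher and 27.3% lower by as much. D12 alone took 3.66% of its gene reads for this list, where the other 19 cells took 0.0242% to 0.569%, and without D12 the median was 1.48. Iigp1, an interferon-induced GTPase, had a log2 fold of -4.87 and -0.05 without D12. Irgm2, of the same kind, had -2.76 and 2.65 without D12. Gbp8, a guanylate-binding protein, had 1.83, with -0.10 without A10 and 7.01 without D12. Cd274, which encodes PD-L1, had 2.16, with 1.10 without A10 and 4.22 without D12.

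Csf2ra (ENSMUSG00000059326, chromosome 19, 61223957 to 61228429, minus strand) encodes the GM-CSF-binding chain. In CD150+CD48- cells it had 145 CPM in A8, 109 in A11, 102 in A3, 87.9 in B11, 84.8 in B9 and 1.52 in B3, and 0 in A10, B4 and B12. In CD150- cells it had 205 CPM in D11, 13.6 in D9, 6.06 in C10 and D5, 4.55 in D12 and 1.52 in C6, and 0 in the other 5. So 5 of 9 CD150+CD48- cells lay above every CD150- cell except D11.

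The group level of Csf2ra was 58.9 CPM (95% CI 52.9 to 65.4) against 21.5 CPM (95% CI 18.2 to 25.1), 2.74-fold higher in CD150+CD48- cells (95% CI 2.26 to 3.33), with medians of 84.8 CPM and 1.52 CPM. It was read in 6 of 9 and 6 of 11 cells. D11 held 86.5% of the CD150- reads, and the log2 fold of 1.41 was 3.84 without D11 and 1.13 without A8. The genes most like it across cells included Ehd4 (rho 0.795) and Ccdc88b (0.788).

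Csf2rb (ENSMUSG00000071713, chromosome 15, 78325752 to 78353847, plus strand) encodes the common beta chain that signals for GM-CSF, IL-3 and IL-5. It was read in 3 cells: 495 CPM in B3, 93.9 in D9 and 42.4 in D11. Csf2rb2 (ENSMUSG00000071714, chromosome 15, 78282507 to 78305721, minus strand), its neighbour, encodes the mouse beta chain specific to IL-3. It was read in 4 other cells: 171 CPM in A3, 80.3 in D12, 22.7 in B11 and 7.58 in D3. No cell had thinned reads of both beta chains, and D12 had 3 reads of Csf2rb at full depth.

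The level of Csf2rb was 55.0 CPM (95% CI 49.2 to 61.4) for CD150+CD48- and 12.4 CPM (95% CI 9.97 to 15.2) for CD150- cells. That of Csf2rb2 was 21.5 CPM (95% CI 18.0 to 25.6) and 7.99 CPM (95% CI 6.07 to 10.3). These ratios of 4.44 (95% CI 3.51 to 5.67) and 2.70 (95% CI 1.96 to 3.74) turned on single cells. B3 held 78.4% of all Csf2rb reads, and the log2 fold of 2.06 was -3.74 without B3 and 3.42 without D9. A3 held 60.8% of all Csf2rb2 reads, and the log2 fold of 1.33 was -1.23 without A3 and 3.68 without D12. B3 also had the highest shares of the B cell list, 0.0691%, and of the stromal and endothelial list, 0.0656%, whose part in its Csf2rb level was not tested. Of all genes past the filter, 20.9% had 50% or more of their reads in 1 cell. The transcripts share sequence, 12.3% of the 50-base words of Csf2rb and 18.4% of those of Csf2rb2 occurring in the other gene, so both levels are uncertain.

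Il3ra (ENSMUSG00000068758, chromosome 14, 14346275 to 14356011, plus strand), which encodes the IL-3-binding chain, had 8 thinned reads in B11 and 9 in D3 and none elsewhere. Its levels of 1.35 CPM and 1.24 CPM could not be told apart by counting error (ratio 1.09, 95% CI 0.365 to 3.17). Both cells with Il3ra reads also had Csf2rb2 reads, and neither had Csf2rb. Reads of Csf2ra and Csf2rb together were in B3, D9 and D11, which are all the cells with Csf2rb reads, although Csf2ra in B3 was a single read. Il5ra, the IL-5-binding chain, had no thinned read in any cell.

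Csf1r (ENSMUSG00000024621, chromosome 18, 61100598 to 61132149, plus strand) encodes the M-CSF receptor of monocytes and macrophages. It had 3 thinned reads in A10 and none in the other 19 cells, so no fold is given; 0 of 11 CD150- cells allows a share of up to 28.5%. At full depth it had 3 reads each in A10 and B9 and 1 in D11. Part of its exons overlaps Hmgxb3 on the opposite strand (14.3% of its 50-base words), and the counting is not stated to use strand. Of the 17 monocyte and macrophage markers found, 6 had no read, among them Ccr2, Adgre1 and Cd14, and the list took at most 0.0379% of gene reads, in D12.

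Per kilobase of annotated exon, the order of mean levels differed between the sorts. The length used joins all annotated exons of a gene and not the transcript that was read, so the order between genes is approximate. In CD150+CD48- cells Csf2ra was first at 20.5 CPM per kb, before Ifngr1 at 16.7, Csf2rb at 7.56, Csf2rb2 at 4.55 and Il6st at 3.64, with Il3ra, Csf1r, Epor and Il1rl1 at 0.454 or less. Without B3 the order was Csf2ra at 23.0, Ifngr1 at 5.72, Csf2rb2 at 5.11 and Il6st at 2.35, and Csf2rb was at 0. In CD150- cells Ifngr1 was first at 48.9 CPM per kb, before Epor at 12.7, Csf2ra at 7.48, Il1rl1 at 6.03 and Il6st at 2.11, with the other 4 at 1.70 or less. Without D11, Csf2ra was at 1.11 and Il6st at 0.0410, behind both beta chains. For each gene in each group the lowest cell was at 0, so neighbours in both orders overlapped over their cells.

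Of the 7 receptors past the filter, 3 were at least 2-fold higher in CD150+CD48- cells (Csf2rb, Csf2rb2 and Csf2ra) and 3 lower by as much (Epor, Il1rl1 and Ifngr1). These counts were 2 and 4 without B3, where Csf2rb changed side, 2 and 4 without A3, where Csf2rb2 did, and 4 and 3 without D11. Over all 11345 genes past the filter these shares were 21.8% and 27.3%, with a median log2 fold of -0.09. Il3ra and Csf1r did not pass it. Counting receptors per cell, 5 of the 9 were read in B3 and in B11, and none in B12, which had 88 thinned reads of Slamf1.

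**Figure D4:**
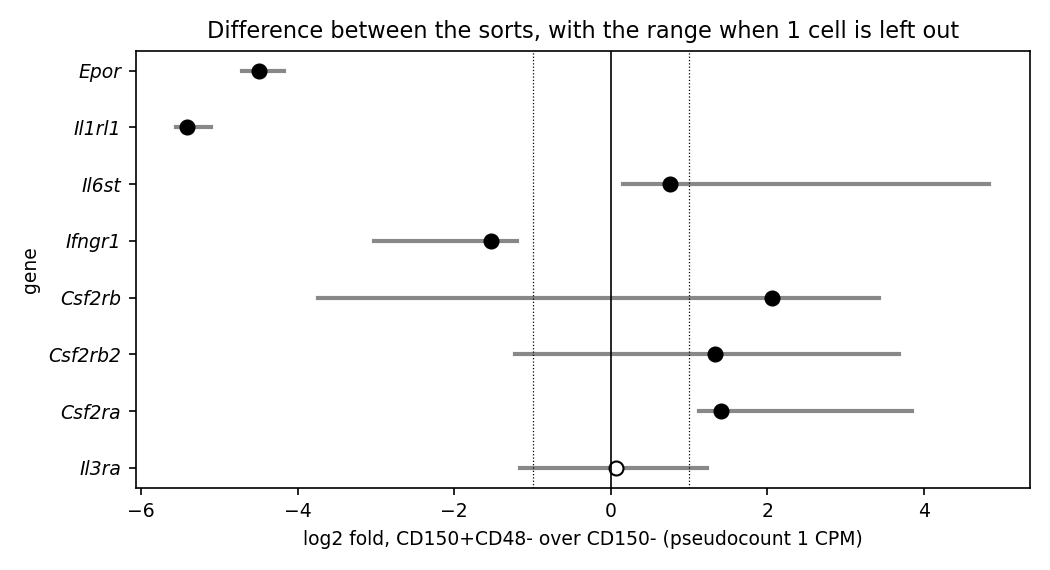
Points give the log2 fold of each receptor, CD150+CD48- over CD150- (x axis, pseudocount 1 CPM, Csf1r not shown), grey bars the range when each of the 20 cells is left out in turn, open circles genes under the filter and dotted lines a 2-fold difference. Epor and Il1rl1 stay at -4.18 or lower, while the bars of Csf2rb and Csf2rb2 cross 0.

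Among 34 other cytokine receptor chains, 21 passed the filter, 10 of them higher by 2-fold or more in CD150+CD48- cells and 5 lower, with a median log2 fold of 0.70. The counts of this list and of the lists below stand beside shares over all genes past the filter of 21.8% higher and 27.3% lower. They are descriptions only. Il11ra1 (log2 fold 6.94) and Il12rb2 were highest; Il12rb2, an IL-12 receptor chain, had 4.41 and 1.65 without B4. Il10rb, a shared chain of the IL-10 family, was lowest at -4.05 (-5.28 without B9 and -3.21 without D11), with 1.35 CPM in CD150+CD48- and 37.9 CPM in CD150- cells, followed by Il1r1, the IL-1 receptor, at -3.03 and -1.12 without D12. Of the 34 chains, 9 had no thinned read in any cell, including Il7r, Il2ra and Il5ra. Setting genes with no read in 1 sort at their bound left this median and those of the lists below as given.

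Of the 11 JAK and STAT genes, all past the filter, 1 was higher by 2-fold or more in CD150+CD48- cells and 3 were lower (median 0.33, and 0.01 without B3). Stat4, which serves IL-12, had a log2 fold of 2.06 (2.73 without D9), and Jak1, the kinase of gp130 and interferon receptors, 0.98. Stat2, of the type I interferon route, was at 32.5 CPM in CD150- cells and without a read in the other sort, where it was at least 64.4-fold lower. Most of its reads were in D11, and its log2 fold of -5.07 was -3.54 without that cell. Tyk2 had -2.04, with -4.41 without A8 and -1.19 without D9. Stat5a and Stat5b, which act behind the erythropoietin, IL-3 and GM-CSF receptors, had log2 folds of 0.35 and 0.92, and -0.68 without B4 and 0.01 without B3.

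Of 22 inhibitors of cytokine signalling found, 19 passed the filter, 8 at least 2-fold higher and 4 at least 2-fold lower (median 0.27, and 0.76 without D11). Socs2, a feedback inhibitor, had a log2 fold of 3.96 (3.20 without B9) and Socs5 2.39 (3.09 without C12). Pias3, an inhibitor of Stat3, had -3.20, and -1.05 without D3. Socs7 had -2.06, with -4.13 without B3 and -1.08 without C12. Of 20 STAT5 target genes, 15 passed, 7 higher and 4 lower by 2-fold (median 0.85, and 1.76 without D12). Ccnd2, a G1 cyclin, had 3.98 (6.14 without D12) and was read in 9 of 9 and 4 of 11 cells. Tfrc, the transferrin receptor of iron-demanding cells, had -4.03 (-4.77 without B9) and Pim1 -2.63 (0.83 without D12); Tfrc is on the erythroid list too.

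Of 24 signal adaptors and kinases, 23 passed, 9 higher and 4 lower by 2-fold (median 0.78, and 0.29 without B9). The kinases Fes and Syk had log2 folds of 3.99 and 3.29, and 3.29 without B11 and 2.51 without B4 in turn. Gab1, an adaptor of receptor signalling, had -3.55 (-2.77 without D12) and Pik3cb, a PI3 kinase subunit, -3.13 (-1.92 without D8). Of 17 ligand genes found, 15 had no thinned read in any cell, among them Epo, Il33, Il6, Ifng, Csf2, Il3 and Csf1. The 2 that were read, Osm and Ctf1, are ligands of the gp130 family. Ctf1, which encodes cardiotrophin-1, had 238 thinned reads in B4 and 2 in 1 other CD150+CD48- cell, and did not pass the filter. Osm was the 1 ligand past the filter, at 5.72 CPM against 0.275 CPM, with a log2 fold of 2.40 and 0.87 without B9.

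**Figure D5:**
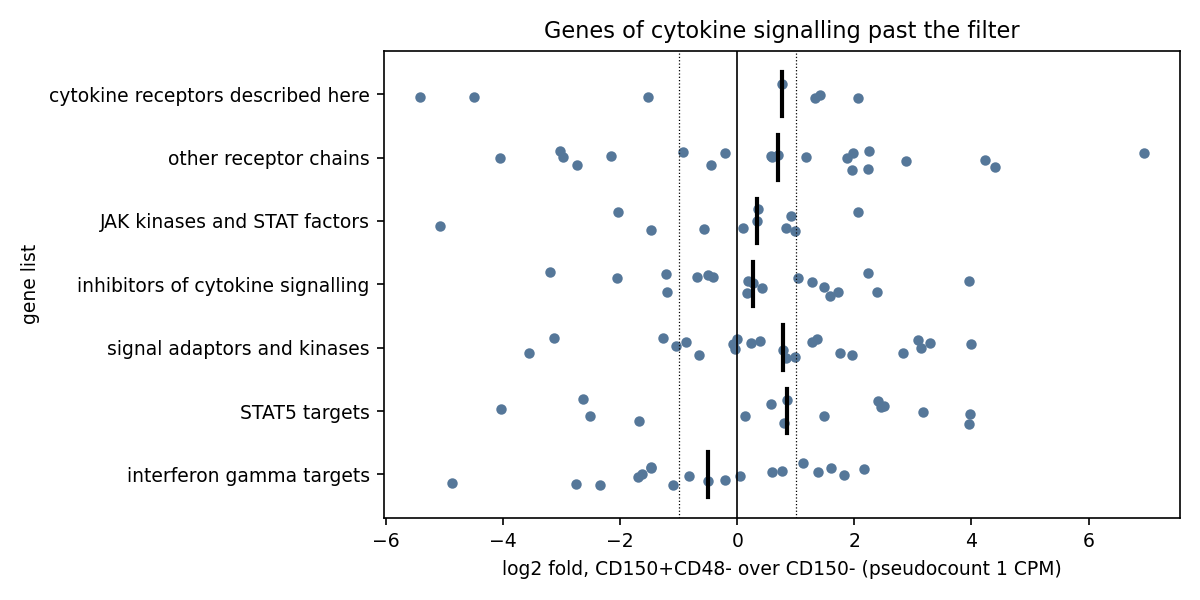
Each point is a gene past the filter, placed by its log2 fold, CD150+CD48- over CD150- (x axis, pseudocount 1 CPM), in the list named on the y axis; black bars are list medians and dotted lines a 2-fold difference. The medians lie between -0.50 (interferon gamma targets) and 0.85 (STAT5 targets), with points on both sides of 0 in every list. Other settings turned the sign of the medians of interferon gamma targets, inhibitors and JAK and STAT genes.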

How the data were processed

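Counts of reads per gene from 20 single cells were used as the authors deposited them, unnormalized. HTSeq, R 3.0.2 and the build GRCm38 are named in the submitters' processing notes; for the aligner and the annotation: not given in the sources used here. The 5 HTSeq summary rows and the 51 ERCC rows stayed out of library sizes. Reads were drawn without replacement to leave 660007 gene reads per cell (Python 3.11.15, numpy 2.4.6, scipy 1.17.1), and genes with at least 10 thinned reads and a read in 3 cells were kept. Log2 folds use a pseudocount of 1 CPM, which understates low genes, and bounds a floor of 3 reads over the group. With 1 sample per group no test was run, and the steps were tested on simulated data. Named genes are the 9 receptors, their partner chains, the 2 highest and 2 lowest log2 folds of each signalling list and the 3 genes most like each receptor read in at least 5 cells; gate genes, markers, Stat5a, Stat5b and Ctf1 were added as examples, and 2 genes that the rule names are not reported here. The receptors and lists were chosen with earlier results of these data known. Coordinates are from GENCODE M21 (GRCm38). Shared 50-base words were counted over its transcripts, the read length being not given. Alternatives were all reads, a second thinning, edgeR 4.0.16 TMM, DESeq2 1.42.0 and ERCC scaling, means of log2 values, other pseudocounts and filters, and leaving out each cell.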

Additional observations from a re-analysis of the deposited data

Results flagged for a closer look

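In 6 cases the highest of the 9 CD150+CD48- cells stood far from the other 8 by Dixon's gap criterion, and 5 of them follow from genes read in 1 or 2 of these cells. The cases listed cover this sort only and do not set it apart, since single CD150- cells stood out as well. Il6st had 253 CPM in D11 and 3.03 CPM in the next CD150- cell, D3. Csf2ra had 205 CPM in D11 and 13.6 CPM in the next, D9, and Csf2rb2 had 80.3 CPM in D12 and 7.58 CPM in D3. B3 had 298 CPM of Ifngr1, where the next cell had 74.2 CPM. B3 also had 495 CPM of Csf2rb and 1.52 CPM of Epor, and no other CD150+CD48- cell had a thinned read of either. With all reads, Epor also had 4 reads in A3 and 1 in B4. A3 had 171 CPM of Csf2rb2, where the next cell, B11, had 22.7 CPM. In thinned reads B11 alone had Il3ra, at 12.1 CPM, and A10 alone had Csf1r, at 4.55 CPM, although B9 had 3 Csf1r reads at full depth. For values of normal spread, chance flags about 1 in 20 groups, and a gene read in 1 cell of the group is flagged by construction.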

How the results depend on the processing

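The directions of Epor, Il1rl1, Il6st, Ifngr1, Csf2rb2 and Csf2ra were the same under the 8 other scalings, thinnings, pseudocounts and means tried. Csf2rb turned from a log2 fold of 2.06 to -0.10 with means of log2 values. Leaving out each cell gave -3.74 (without B3) to 3.42 (without D9) for Csf2rb and -1.23 (without A3) to 3.68 (without D12) for Csf2rb2. The 3 receptors at least 2-fold higher became 1 with a filter of 50 reads and 5 cells, since fewer genes were tested, and 1 with a log2 fold of 2 as the limit. Scaling to ERCC reads moved the median log2 fold of all genes from -0.09 to -0.91. It moved the genes at least 2-fold higher and lower from 2469 and 3098 to 1721 and 5431. With this scaling the log2 fold was -3.63 for Ifngr1, 2.09 for Il6st and 2.13 for Csf2ra, values from which the shifted median was not subtracted. Means of log2 values gave 1606 higher and 4140 lower genes. The list median of JAK and STAT genes, 0.33, was -0.65 with ERCC scaling, -0.64 with means of log2 values and -0.03 with DESeq2 factors. That of interferon gamma targets, -0.50, was 0.55 with means of log2 values, that of inhibitors, 0.27, was -0.12 with them, and that of adaptors, 0.78, was 0.11 with ERCC scaling and 0.17 with DESeq2 factors. The cause was not tested. No paired analysis was possible because the groups share no cell codes. Thinning draws reads at random, so a gene near 1.52 CPM in a cell may be seen or missed.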
